A study of Mus musculus with 12 samples.

Results

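The 4 mouse loci that encode zinc finger regulators of blood cell fate, Ikzf1, Ikzf2, Ikzf3 and Bcl11a, were followed through the open chromatin regions in and around them. A region belonged to a locus when it overlapped the gene body, as annotated in GENCODE M21 basic on GRCm38, or the 20 kb on either side of it. This rule used no measured value and selected 84 of the 121336 regions of the series, of which 25 lay at Ikzf1, 17 at Ikzf2, 10 at Ikzf3 and 32 at Bcl11a. ATAC-seq, in which a transposase cuts and tags accessible DNA, was performed with the OmniATAC protocol on bone marrow cells sorted from C57BL/6 littermates aged 8 to 12 weeks. LSK are Lin- Sca-1+ c-Kit+ cells, the pool that holds stem and multipotent progenitor cells, and GMP are Lin- Sca-1- c-Kit+ CD16/32+ granulocyte-monocyte progenitors. UREd/d mice lack an upstream regulatory element of Spi1, the gene of the transcription factor PU.1, on both alleles, and WT mice carry it. No group received a treatment. Each of the 4 groups, WT-LSK and WT-GMP on one side and URE-LSK and URE-GMP on the other, held 3 libraries, and the study's methods give 3 mice per genotype and cell type.

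Ikaros (Ikzf1), Helios (Ikzf2) and Aiolos (Ikzf3) share DNA-binding zinc fingers near one end and a dimerisation zinc finger pair at the other, through which they form mixed dimers, and they work on chromatin largely together with the NuRD remodelling and deacetylase complex. Ikaros is needed for lymphoid development from the earliest progenitors onwards, Helios is best known from T cells and stem cells, and Aiolos from maturing B cells. Bcl11a, a zinc finger repressor from another family, is required for B cell development and for normal stem cell function, and it silences fetal globin genes in erythroid cells.

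Regions are named by the gene and the distance, in kb along the gene, from the 5' end of its annotated record to the middle of the region. The records span chr11:11685003-11772926 on the plus strand for Ikzf1, chr1:69531214-69687245 on the minus strand for Ikzf2, chr11:98464902-98546031 on the minus strand for Ikzf3 and chr11:24078056-24174123 on the plus strand for Bcl11a. Levels are CPM, counts relative to the TMM-scaled library size, and a difference is a log2 fold change fitted with edgeR on the whole table. Called means an absolute log2 fold change over 1 together with a Benjamini-Hochberg adjusted p under 0.05. Of the 84 regions, 72 lay away from any start site and 12 within 500 bp of one, 7 of these at the start of a basic transcript of a member gene.

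The sequence of 1 named region higher in URE is shown for each locus, and that of 1 named region lower in URE for Ikzf1, Ikzf3 and Bcl11a, because these carry some of the largest differences described here. Each is the 300 bases around the middle of the region on the plus strand of GRCm38, so that it reaches beyond a region shorter than that. Capitals mark matches on either strand to 1 of 5 motifs, which are GAGGAAGT for PU.1, AACCACA for RUNX proteins, TTGCNNAA for C/EBP proteins, AGATAA for GATA proteins, and TGGGAA, the core bound by Ikaros proteins. The lower region comes first in each pair, and Bcl11a +40.7 kb held no match.
Ikzf1 +31.8 kb (chr11:11716649-11716948): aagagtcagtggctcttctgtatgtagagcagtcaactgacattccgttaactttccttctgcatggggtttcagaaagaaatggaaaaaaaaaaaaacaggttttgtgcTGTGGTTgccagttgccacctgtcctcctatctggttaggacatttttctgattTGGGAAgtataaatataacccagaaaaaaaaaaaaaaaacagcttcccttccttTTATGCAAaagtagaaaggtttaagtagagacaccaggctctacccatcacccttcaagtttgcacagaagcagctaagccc
Ikzf1 -20.1 kb (chr11:11664769-11665068): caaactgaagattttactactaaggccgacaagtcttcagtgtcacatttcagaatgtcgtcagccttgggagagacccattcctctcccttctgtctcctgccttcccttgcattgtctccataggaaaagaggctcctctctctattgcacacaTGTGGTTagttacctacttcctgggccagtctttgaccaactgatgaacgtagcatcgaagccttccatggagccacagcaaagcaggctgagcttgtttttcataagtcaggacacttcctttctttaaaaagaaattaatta
Ikzf2 +35.5 kb (chr1:69651572-69651871): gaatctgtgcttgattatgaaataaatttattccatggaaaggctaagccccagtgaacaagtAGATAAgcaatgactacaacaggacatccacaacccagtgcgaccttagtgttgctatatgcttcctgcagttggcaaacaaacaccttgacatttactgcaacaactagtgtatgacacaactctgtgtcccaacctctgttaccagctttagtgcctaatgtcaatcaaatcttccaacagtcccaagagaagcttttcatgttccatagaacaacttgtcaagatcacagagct
Ikzf3 +52.9 kb (chr11:98493019-98493318): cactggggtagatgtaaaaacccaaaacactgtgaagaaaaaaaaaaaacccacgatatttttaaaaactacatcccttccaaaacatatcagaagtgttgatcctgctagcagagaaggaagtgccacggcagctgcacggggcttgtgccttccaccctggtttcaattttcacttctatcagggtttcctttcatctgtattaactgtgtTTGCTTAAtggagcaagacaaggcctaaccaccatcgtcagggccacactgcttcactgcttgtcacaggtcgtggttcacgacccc
Ikzf3 +64.6 kb (chr11:98481305-98481604): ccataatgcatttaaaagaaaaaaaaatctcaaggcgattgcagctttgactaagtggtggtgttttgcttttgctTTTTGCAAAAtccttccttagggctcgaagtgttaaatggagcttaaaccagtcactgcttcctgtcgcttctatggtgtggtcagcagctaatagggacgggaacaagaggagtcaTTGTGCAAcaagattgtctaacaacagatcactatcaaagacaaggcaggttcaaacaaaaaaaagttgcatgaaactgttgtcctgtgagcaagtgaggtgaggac
Bcl11a +7.2 kb (chr11:24085120-24085419): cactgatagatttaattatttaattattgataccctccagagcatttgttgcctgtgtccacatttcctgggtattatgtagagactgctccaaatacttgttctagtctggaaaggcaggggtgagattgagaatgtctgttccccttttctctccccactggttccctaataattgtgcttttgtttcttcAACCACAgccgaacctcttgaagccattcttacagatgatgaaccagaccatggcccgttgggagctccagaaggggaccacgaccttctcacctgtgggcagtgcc
Bcl11a +40.7 kb (chr11:24118618-24118917): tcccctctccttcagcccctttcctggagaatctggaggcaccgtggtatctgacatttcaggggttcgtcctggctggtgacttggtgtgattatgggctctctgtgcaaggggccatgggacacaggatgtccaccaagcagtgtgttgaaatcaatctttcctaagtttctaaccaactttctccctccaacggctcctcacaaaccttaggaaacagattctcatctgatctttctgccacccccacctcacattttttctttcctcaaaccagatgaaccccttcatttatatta

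The 12 libraries held 23072701 to 62204826 counts, and correlations of log values were 0.94 to 0.98 within groups and at most 0.827 between groups. Library pairs within a group differed by more than counting noise, at a chi-square of 3.229 to 11.76 per degree of freedom, so none was a copy of another. The strongest region of the deleted element, chr2:91082790-91083700, was at 39.4 ± 3.23 and 43.8 ± 2.31 CPM in the WT libraries of LSK and GMP (SD, n = 3), and no URE library held over 6 counts there. The summed start-site signal of GMP genes (5 of 5 with a region) was 24.4 to 28.4 CPM in the LSK of WT mice and 21.9 to 45.2 in those of URE mice, and 179 to 222 and 289 to 304 in their GMP, and that of LSK genes (4 of 5) was 194 to 204, 206 to 234, 151 to 171 and 161 to 170 in the same order. Among markers of other cells, the megakaryocyte list (4 of 4) was at 63.7 to 90.2, 98.7 to 102, 28.3 to 50.4 and 21.1 to 34.2 CPM in that order. The dendritic list had a region at Siglech alone (1 of 3 genes), at 3.08 to 6.2, 0 to 0.0714, 5.82 to 7.83 and 0.172 to 0.52 CPM. B cell markers (2 of 5) were at 8.58 to 9.37, 7.39 to 9.85, 9.33 to 9.98 and 7.2 to 8.47 CPM, and T cell markers (2 of 5) at 7.47 to 9.92, 6.81 to 7.69, 2.16 to 3.32 and 3.68 to 5.77. These sums mix unlike members, since in both cell types the URE means of Cd4, Cd79b, Pf4, Prtn3 and Ms4a3 were lower and those of Lck and Ebf1 higher than in WT. Cd4 was at 0.0758 ± 0.0588 CPM in URE-LSK against 2.26 ± 0.311 in WT-LSK, and Lck at 4.45 ± 1.13 in URE-GMP against 1.71 ± 0.547 in WT-GMP. Among others, the start sites of Cd79a, Pax5, Cd3e, Cd3g, Cd8a, Gata1 and Klf1 carried no region. The mast cell list had a region at Cpa3 alone (1 of 3), at 5.09 to 7.84, 11.5 to 15.2, 2.25 to 4.43 and 3.23 to 7.24. The part of cell composition in the differences below was not tested.

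The first comparison asked how loss of the Spi1 element altered accessibility of these loci in each cell type. In LSK, 24 of the 84 regions were called lower in URE (28.6%) and 8 higher (9.52%). Over all regions, 23.9% were called lower and 13.6% higher in this comparison, so the members' shares lay near the background. In GMP, 25 members were lower (29.8%) and 11 higher (13.1%), against 24.1% and 15.6% of all regions. The median log2 fold change of the members was 0.02 in LSK and -0.28 in GMP, and that of all regions 0.14 and 0.06. In bulk sorted cells, fewer cells with an open region and less accessibility per cell cannot be told apart.

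The split into lower and higher depended on the scaling. With offsets fitted against mean abundance (loess), 17 members were higher and 17 lower in LSK, and 16 and 23 in GMP. With offsets fitted against GC content the numbers were 17 and 20 in LSK, and 16 and 19 in GMP. All regions moved the same way, from 36.2% higher among the called regions of LSK to 53.9% with loess offsets and 52% with GC offsets, and from 39.4% to 56.2% and 52.9% in GMP. Leaving out WT-LSK replicate 1 left 5 members called higher in LSK. A stricter test, of whether a change exceeded the fold threshold itself (glmTreat in edgeR), called 4 members higher and 20 lower in LSK, and 7 and 19 in GMP. The regions named below that it no longer called were Ikzf1 -17.2 and -0.1 kb, Ikzf2 +75.7, +103.1 and +158.4 kb and Bcl11a +80.2 kb in LSK, with adjusted p of 0.0911 to 0.557, and Ikzf1 +11 and +45.4 kb, Ikzf2 +56.6 kb and Bcl11a +9.2, +33.9 and +66.6 kb in GMP, with 0.0583 to 0.356.

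Counts per locus are read against all regions, of which 23.9% were called lower and 13.6% higher in LSK, and 24.1% and 15.6% in GMP. In LSK and GMP the lower shares were 44% and 40% at Ikzf1, and 28.1% and 31.2% at Bcl11a. They were 11.8% and 17.6% at Ikzf2, and 20% in each cell type at Ikzf3. At Ikzf1, 11 of 25 regions were called lower and 1 higher in LSK, and 10 and 2 in GMP, with a median log2 fold change of -0.61 and -0.48, or -0.34 and -0.15 with GC offsets. At Bcl11a, 9 of 32 were lower and 2 higher in LSK, and 10 and 5 in GMP, with medians of 0.08 and -0.26. Ikzf2 had 2 of 17 lower and 3 higher in LSK, and 3 of each in GMP (medians 0.16 and -0.08), where the LSK median was 0.6 with GC offsets and the GMP median -0.48 with a mean CPM of at least 2 required. Ikzf3 had 2 of 10 lower and 2 higher in LSK, and 2 lower and 1 higher in GMP (medians -0.15 and -0.21). Whether the loci differed from each other was not tested, and neighbouring regions of a locus are not independent of each other.

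**Figure D1:**
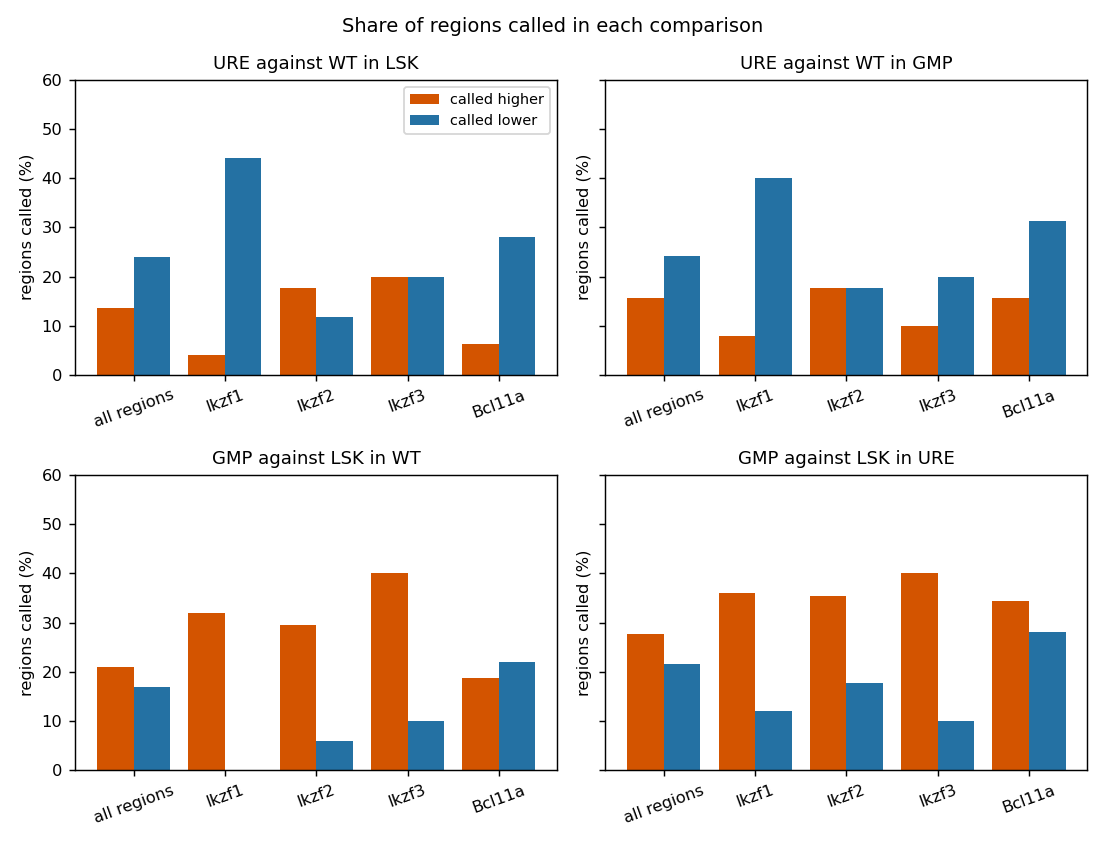
Percent of regions called higher (orange) and lower (blue) in each of the 4 comparisons, for all 121336 regions and for the 25, 17, 10 and 32 regions of the Ikzf1, Ikzf2, Ikzf3 and Bcl11a loci. In both URE against WT panels the tallest bar is the lower share of Ikzf1, 44% in LSK and 40% in GMP, and in the panel of GMP against LSK in WT Ikzf1 has no lower bar.

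**Figure D2:**
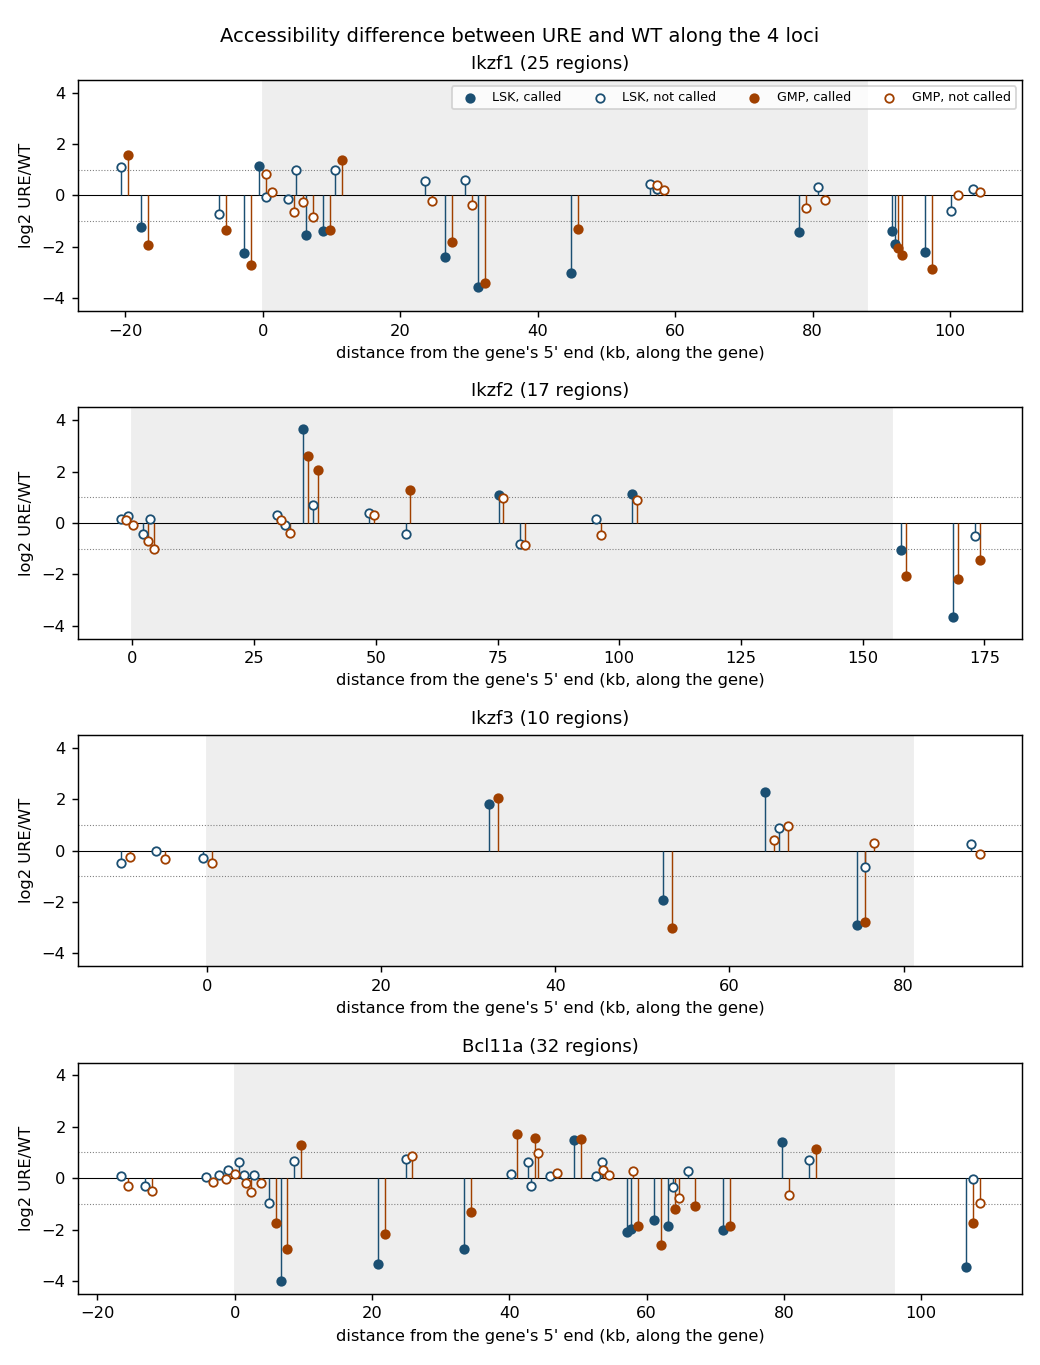
Log2 fold change of URE against WT (vertical axis) in LSK (blue) and GMP (orange) at each region, against the distance from the gene's 5' end in kb (horizontal axis), with the gene body shaded and dotted lines at 1 and -1. Filled points were called. The points of the genes' own start sites are all open, and the filled ones lie in introns and flanks. Among the latter, Ikzf1 -0.1 kb, filled in LSK, spans the 5' end of the Ikzf1 record.

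None of the 7 regions at the genes' own start sites was called by edgeR or by DESeq2 in either cell type, while 2 in LSK and 5 in GMP had an unadjusted p under 0.05. Some had an edgeR adjusted p under 0.05 and missed the fold threshold only. In LSK these were Ikzf2 -0.4 kb and Bcl11a -0.5 kb. In GMP they were Ikzf2 +2.7 kb, Ikzf3 +0.1 kb, Bcl11a -0.5 kb and Bcl11a +1.9 kb (0.0216 at the last). Over all regions, 11.5% of promoter regions were called in LSK and 13% in GMP, against 42.4% and 44.7% of the other regions. An absence of calls among 7 regions thus lay near the promoter share.

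The main Ikzf1 start region, Ikzf1 +0.9 kb (chr11:11685299-11686452), also lay at a start site of the neighbouring gene Gm11999. It held 56.1, 57.6 and 55.1 CPM in WT-LSK and 49.8, 58.3 and 52.2 CPM in URE-LSK. In GMP it held 69.2, 64.0 and 61.2 CPM in WT and 68.8, 76.4 and 67.1 in URE. The genotypes overlapped in both cell types, with a log2 fold change of -0.08 ± 0.08 (SE) in LSK and 0.13 ± 0.08 in GMP. At Ikzf2 -0.4 kb (chr1:69687067-69688225), URE-LSK was above WT-LSK in every library, at 54.7 ± 4.84 against 44.8 ± 3.0 CPM (log2 fold change 0.29 ± 0.09, adjusted p = 0.00971), and GMP overlapped at 54.5 ± 3.87 in URE and 57.4 ± 3.22 in WT. The other Ikzf2 start, Ikzf2 +2.7 kb, was at 3.29 ± 0.482 CPM in URE-LSK against 4.42 ± 0.585 in WT-LSK, and its log2 fold change in GMP was -0.72 ± 0.21 (adjusted p = 0.00746), short of the fold threshold.

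The Ikzf3 start region, Ikzf3 +0.1 kb (chr11:98545664-98546148), was weak, at 3.46 ± 0.52 CPM in URE-LSK against 4.27 ± 0.166 in WT-LSK, and at 2.44 ± 0.456 in URE-GMP against 3.44 ± 0.0459 in WT-GMP. Every URE library lay below every WT library of its cell type there, with log2 fold changes of -0.30 ± 0.19 and -0.49 ± 0.19 (adjusted p = 0.175 and 0.0351). The strongest region of this locus, Ikzf3 -5.3 kb, was the start site of the neighbouring gene Zpbp2 and held 33.4 ± 2.95 CPM in URE-LSK against 33.3 ± 4.15 in WT-LSK. The Bcl11a start region, Bcl11a -0.5 kb (chr11:24076912-24078260), which it shares with the neighbouring gene Gm12063, held 73.6 ± 4.13 CPM in URE-LSK against 59.6 ± 3.36 in WT-LSK, and 67.3 ± 1.69 in URE-GMP against 59.9 ± 3.16 in WT-GMP. URE libraries were above WT libraries in both cell types, by 0.30 ± 0.07 and 0.17 ± 0.07 on the log2 scale (adjusted p = 0.00179 and 0.0499). The internal starts Bcl11a +3.3 kb and +1.9 kb had log2 fold changes of 0.11 and 0.12 in LSK and -0.19 and -0.52 in GMP, with directions in LSK that turned under library-size scaling (-0.02 and -0.01).

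Losses at Ikzf1 lay in its introns and in both flanks. Ikzf1 +31.8 kb, an intronic region (chr11:11716525-11717072) whose centre is printed above, held 9.47, 9.75 and 6.74 CPM in WT-LSK and 0.833, 0.698 and 0.662 in URE-LSK. The GMP libraries held 13.9, 12.5 and 10.6 CPM in WT and 1.25, 1.04 and 1.19 in URE. All URE libraries lay far below all WT libraries in both cell types, with log2 fold changes of -3.56 ± 0.22 (adjusted p = 6e-09) and -3.41 ± 0.21 (adjusted p = 1.21e-08). Its window held 1 match each for RUNX, C/EBP and the Ikaros core.

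Farther into the gene, Ikzf1 +45.4 kb (chr11:11730059-11730826) held 6.09, 5.87 and 7.54 CPM in WT-LSK and 0.738, 0.67 and 0.961 in URE-LSK. Its GMP libraries were at 24.6, 32.4 and 25.4 CPM in WT and 11.5, 14.0 and 7.41 in URE. It was lower in URE in every library of both cell types, with log2 fold changes of -3.03 ± 0.25 in LSK and -1.32 ± 0.20 in GMP. With GC offsets the GMP value was -0.96, short of the fold threshold. Ikzf1 +78.5 kb (chr11:11763117-11763803) held 21.1, 22.9 and 21.2 CPM in WT-LSK and 8.11, 8.88 and 7.48 in URE-LSK. Its log2 fold change was -1.41 ± 0.10 in LSK (adjusted p = 2.15e-08) and -0.48 ± 0.10 in GMP, where 30.8 ± 1.65 CPM in WT stood against 22.1 ± 0.914 in URE and the libraries did not overlap.

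Upstream, Ikzf1 -17.2 kb (chr11:11667352-11668174, within the gene record Gm11999) held 5.4 ± 0.279 CPM in URE-LSK against 12.9 ± 1.11 in WT-LSK, and 2.27 ± 0.553 in URE-GMP against 8.69 ± 0.891 in WT-GMP. Both log2 fold changes were called, at -1.25 ± 0.18 and -1.92 ± 0.18, and no URE library reached a WT library. With GC offsets the LSK value was -0.78. Gains at Ikzf1 were fewer. Ikzf1 -0.1 kb lay at a start site of Gm11999, as Ikzf1 +0.9 kb did. It was at 11.1 ± 0.523 CPM in URE-LSK and 5.06 ± 0.801 in WT-LSK (log2 fold change 1.14 ± 0.16, adjusted p = 1.81e-05). The difference was 0.99 without WT-LSK replicate 1 and 0.96 with TMM factors from promoter regions. In GMP its value was 0.82 ± 0.16 (adjusted p = 0.000426), short of the fold threshold, with every URE library above every WT library. This region also spans the 5' end of the Ikzf1 record, although no basic transcript of Ikzf1 starts within 500 bp of it. Ikzf1 +11 kb, the start site of Gm12000, rose in GMP from 1.37 ± 0.253 to 3.58 ± 0.359 CPM (1.39 ± 0.23 on the log2 scale, adjusted p = 9.8e-05) and was at 0.97 ± 0.23 in LSK, which DESeq2 (1.02), RLE factors (1.02), both kinds of offsets (1.13 and 1.18) and leaving out WT-LSK replicate 2 (1.03) or URE-LSK replicate 3 (1.15) turned into a call. Ikzf1 -20.1 kb, the higher region printed above, rose in GMP from 1.21, 1.11 and 0.876 CPM in WT to 2.6, 3.28 and 3.68 in URE (1.59 ± 0.33, adjusted p = 0.000664). In LSK the same region held 0.202 ± 0.149 CPM in WT and 0.395 ± 0.158 in URE, and the libraries overlapped (1.12 ± 0.47, adjusted p = 0.0545). That LSK value was called with DESeq2 (1.17), RLE factors (1.17), loess offsets (2.47), GC offsets (1.54) and without WT-LSK replicate 2 (1.62) or URE-LSK replicate 2 (1.38).

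Losses at Bcl11a were spread over the gene and its 3' flank. Bcl11a +107.1 kb, in the downstream flank (chr11:24184941-24185346), held 11, 12.5 and 10.7 CPM in WT-LSK and 0.833, 1.42 and 0.876 in URE-LSK. In GMP it held 12.7, 16.9 and 17.8 CPM in WT and 4.56, 6.31 and 3.39 in URE. URE libraries lay below WT libraries in both cell types, with log2 fold changes of -3.46 ± 0.26 (adjusted p = 3.03e-08) and -1.73 ± 0.23 (adjusted p = 9.67e-06). Bcl11a +61.6 kb, intronic (chr11:24139312-24139917), held 17.2, 15.3 and 21 CPM in WT-LSK and 5.12, 8.68 and 3.57 in URE-LSK. There GMP fell from 6.55 ± 1.46 to 1.07 ± 0.087 CPM (log2 fold change -2.61 ± 0.29), and the LSK value was -1.63 ± 0.26, with no overlap in either cell type.

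Bcl11a +7.2 kb, a short intronic region (chr11:24085165-24085373) printed above, was at 0.84, 1.35 and 1.03 CPM in WT-LSK, and the URE-LSK libraries held 3, 1 and 4 counts. In GMP it was at 1.38, 1.95 and 1.24 CPM in WT and 0.172, 0.26 and 0.242 in URE. The fitted log2 fold changes were -3.99 ± 0.45 and -2.75 ± 0.36, and the groups did not overlap. Bcl11a +33.9 kb (chr11:24111783-24112156) was lower in URE in both cell types, at 0.882 ± 0.209 against 5.86 ± 0.341 CPM in LSK (-2.74 ± 0.30) and 2.53 ± 0.992 against 6.23 ± 1.74 CPM in GMP (-1.30 ± 0.27), and the GMP value was -0.88 with GC offsets.

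Gains at Bcl11a lay in its long introns. Bcl11a +9.2 kb (chr11:24087084-24087517) held 17.4, 18.8 and 16.1 CPM in URE-GMP against 6.61, 9.29 and 5.26 in WT-GMP. All URE-GMP libraries were above all WT-GMP libraries (log2 fold change 1.30 ± 0.20, adjusted p = 3.42e-05), and in LSK, where the region was at 1.32 ± 0.126 and 2.07 ± 0.292 CPM, the value was 0.65 ± 0.23 (adjusted p = 0.023), and 1.14 with GC offsets, which made it a call. Bcl11a +40.7 kb, the higher region printed above, held 4.56, 4.63 and 4.36 CPM in URE-GMP against 1.76, 1.41 and 1.01 in WT-GMP. It rose in GMP by 1.72 ± 0.25 (adjusted p = 2.09e-05) and overlapped between genotypes in LSK, at 0.321 ± 0.0835 and 0.346 ± 0.0749 CPM, where loess offsets alone gave a call (1.18, adjusted p = 0.00784). Bcl11a +50 kb was higher in URE in both cell types, at 3.54 ± 0.312 against 1.26 ± 0.175 CPM in LSK (1.48 ± 0.24) and 1.79 ± 0.0428 against 0.641 ± 0.213 CPM in GMP (1.52 ± 0.26), with no overlap. Bcl11a +80.2 kb rose in LSK from 0.629 ± 0.0247 to 1.66 ± 0.183 CPM (1.41 ± 0.32, adjusted p = 0.00137), and was at 0.672 ± 0.264 and 0.425 ± 0.0971 in GMP.

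At Ikzf2, losses lay beyond the 3' end and gains in introns. Ikzf2 +169.1 kb, inside the gene record Gm29114, held 2.28, 2.2 and 2.33 CPM in WT-LSK and 0.167, 0.167 and 0.192 in URE-LSK. The WT and URE libraries of GMP held 1.84, 2.1 and 3.55 CPM, and 0.667, 0.382 and 0.63 CPM, respectively. The groups did not overlap, and the log2 fold changes were -3.67 ± 0.36 (adjusted p = 3.63e-07) and -2.18 ± 0.30 (adjusted p = 1.59e-05). The start site of Gm29114 itself, Ikzf2 +173.5 kb, fell in GMP from 13.7 ± 5.95 to 5.06 ± 1.59 CPM (-1.45 ± 0.25) and had a value of -0.52 ± 0.24 in LSK (adjusted p = 0.079). Ikzf2 +158.4 kb fell in LSK from 4.16 ± 0.691 to 2.03 ± 0.81 CPM (-1.05 ± 0.33, adjusted p = 0.0142) and in GMP from 0.793 ± 0.431 to 0.196 ± 0.0742 (-2.05 ± 0.46). The LSK call at this region was lost without WT-LSK replicate 3 (-0.98, adjusted p = 0.0524), without URE-LSK replicate 3 (-0.79, 0.0685), with DESeq2 (-1.0), with loess offsets (-0.20) and with GC offsets (-0.36).

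Ikzf2 +35.5 kb, intronic (chr1:69651580-69651862) and the higher region printed above, held 4.26, 5.33 and 2.93 CPM in URE-GMP and 0.837, 0.944 and 0.277 in WT-GMP. Every URE-GMP library was above every WT-GMP library (log2 fold change 2.62 ± 0.43, adjusted p = 7e-05). In LSK the region was near the floor, with 2 counts in the 3 WT libraries together and 33 in the 3 URE libraries, a ratio of CPM of 14.9 with an exact 95% counting interval of 3.8 to 128. Its neighbour Ikzf2 +37.6 kb rose in GMP from 0.65 ± 0.158 to 2.7 ± 0.526 CPM (2.05 ± 0.40, adjusted p = 0.000394) and was at 0.0864 ± 0.0688 and 0.127 ± 0.104 in LSK, where loess offsets alone gave a call (2.11, adjusted p = 0.0151). Ikzf2 +56.6 kb likewise rose in GMP, from 1.96 ± 0.445 to 4.76 ± 0.567 CPM (1.27 ± 0.27), and its LSK libraries overlapped (-0.43 ± 0.37).

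Smaller differences were measured deeper in the gene, at Ikzf2 +75.7 kb (1.09 ± 0.26 in LSK, 0.98 ± 0.23 in GMP) and Ikzf2 +103.1 kb (1.11 ± 0.31 and 0.91 ± 0.25). At both, all URE libraries were above all WT libraries of the same cell type. Both LSK calls were lost without WT-LSK replicate 1 (0.84 and 1.0), with TMM factors from promoter regions (0.92 and 0.94) and with library-size scaling (0.98 and 1.0), and the latter also without URE-LSK replicate 3 (0.79). Both were called in GMP as well with GC offsets (1.65 and 1.41) and loess offsets (1.41 and 1.26), the former also with DESeq2 (1.05) and RLE factors (1.04), and leaving out 1 GMP library gave values up to 1.07 and 1.0.

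Ikzf3 had the fewest regions, and those called between genotypes were weak and intronic. Ikzf3 +52.9 kb (chr11:98493059-98493277), printed above as the lower region, held 1.47, 1.39 and 1.43 CPM in WT-LSK and 0.167, 0.558 and 0.406 in URE-LSK. In GMP it held 0.46, 0.944 and 0.738 CPM in WT and 0.0646, 0.121 and 0.0727 in URE. URE lay below WT throughout, with log2 fold changes of -1.93 ± 0.40 in LSK and -3.01 ± 0.49 in GMP, and the LSK value was -0.45 with loess offsets, which ended the call. Ikzf3 +75.1 kb was lower in both cell types (-2.90 ± 0.72 and -2.77 ± 0.51), at 0.0668 ± 0.0397 CPM in URE-LSK against 0.498 ± 0.144 in WT-LSK and 0.265 ± 0.269 in URE-GMP against 1.94 ± 0.459 in WT-GMP, and its LSK call was also lost with loess offsets (-1.48, adjusted p = 0.0779).

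In the other direction, Ikzf3 +64.6 kb (chr11:98481317-98481592) held 0.131, 0.163 and 0.282 CPM in WT-LSK and 0.738, 0.586 and 1.58 in URE-LSK. The URE-LSK libraries were all higher (2.27 ± 0.42, adjusted p = 0.000255), although well under the 3.59 ± 0.821 CPM of WT-GMP and the 4.74 ± 0.25 of URE-GMP. Its window held 3 C/EBP matches, a pair of them overlapping. Ikzf3 +32.9 kb was higher in both cell types, at 2.36 ± 0.57 CPM in URE against 0.656 ± 0.302 in WT for LSK (1.80 ± 0.42) and 1.76 ± 0.754 against 0.419 ± 0.242 for GMP (2.03 ± 0.45), without overlap.

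**Figure D3:**
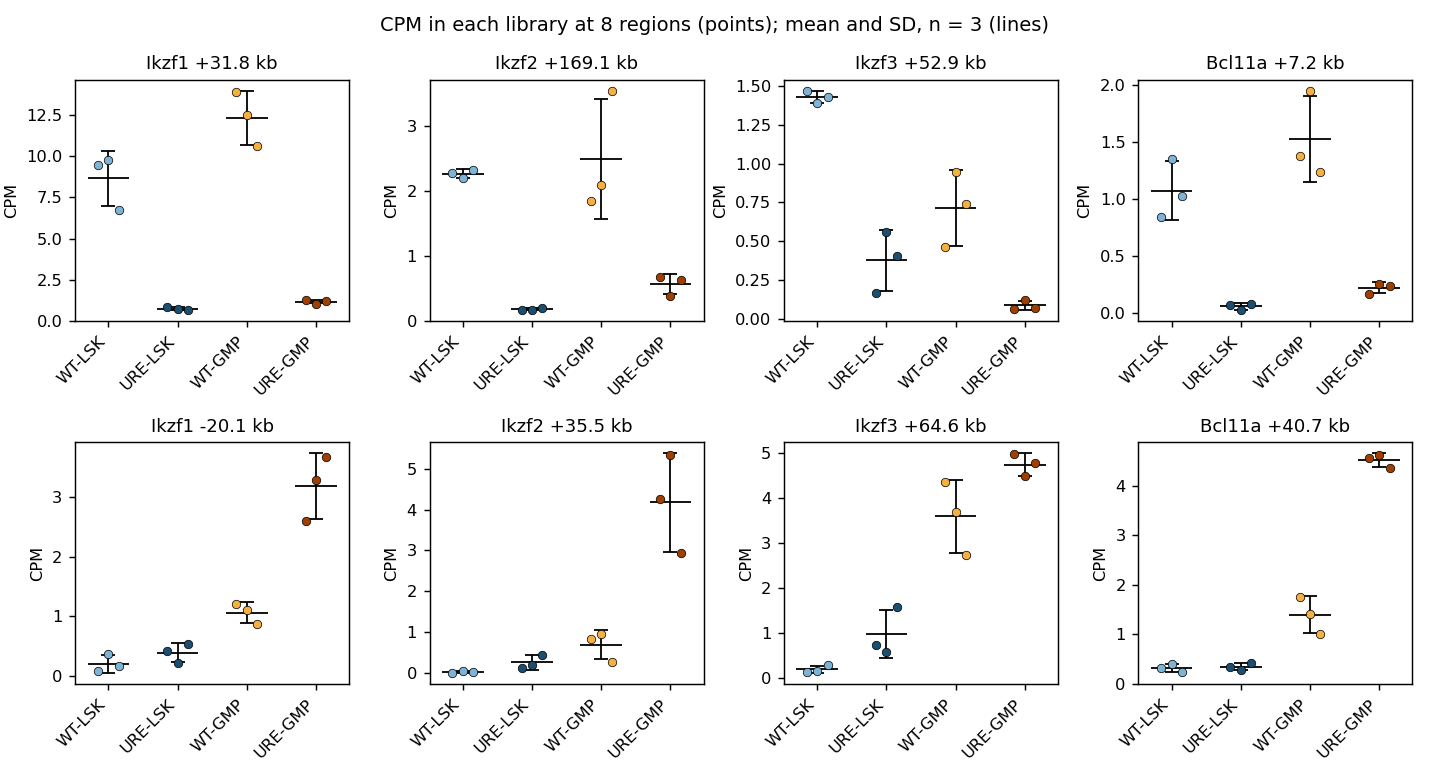
CPM of 8 named regions, 1 lower and 1 higher in URE at each locus, in each library of the 4 groups (points), with the mean and SD of 3 libraries (lines); upper row, regions lower in URE, lower row, regions higher in URE. In the upper row every URE point lies under the WT points of the same cell type, and in the lower row the highest points are those of URE-GMP.

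The losses were largely shared by the cell types. Of the members called lower, 21 were lower in both LSK and GMP, which is 87.5% of the LSK list and 84% of the GMP list. Over all regions the shares were 78.3% and 77.9%, so most losses were shared across the whole series as well. The members called higher included 3 regions in both, Ikzf2 +35.5 kb, Ikzf3 +32.9 kb and Bcl11a +50 kb, or 37.5% and 27.3% of the lists, against 62.1% and 54% over all regions. The gains called in 1 cell type alone depended partly on the fold threshold. Of the 5 in LSK, Ikzf2 +75.7 and +103.1 kb and Ikzf1 -0.1 kb had GMP values of 0.98, 0.91 and 0.82 (adjusted p = 0.00158, 0.00557 and 0.000426). The others, Ikzf3 +64.6 kb and Bcl11a +80.2 kb, had 0.41 and -0.67. Of the 8 in GMP, Ikzf1 +11 kb and Bcl11a +9.2 and +84.2 kb had an LSK adjusted p under 0.05. The LSK and GMP comparisons have no library in common. No member was called in opposite directions, by edgeR or by DESeq2, and none had opposite signs at an unadjusted p under 0.05 in both. The share of such regions in the whole series was not counted, so this is not read as a trait of these loci. Ikzf1 contributed 9 and Bcl11a 8 of the 21 shared losses.

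**Figure D4:**
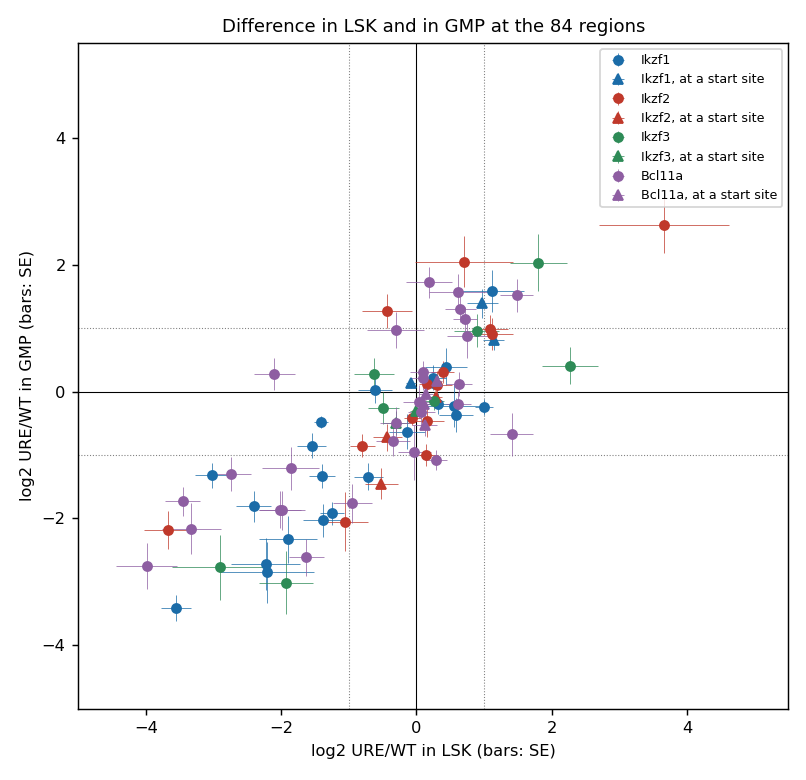
Log2 fold change of URE against WT in LSK (horizontal axis) and in GMP (vertical axis) at the 84 regions, coloured by locus, with SE as bars and triangles for regions at a start site. The 21 regions called lower in both fill the lower left, the triangles of the genes' own start sites lie near 0, and no point called in both lies in the upper left or lower right.

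A further comparison asked how the loci changed from LSK to GMP in each genotype. In WT, 23 of the 84 regions were called higher in GMP and 9 lower, 27.4% and 10.7%, against 21% and 16.8% of all regions, and glmTreat called 21 and 4. In URE, 30 were higher and 16 lower, 35.7% and 19%, against 27.6% and 21.6%. These comparisons share libraries with the genotype comparisons, so their values are set side by side only.

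At Ikzf1, 8 of 25 regions were higher in GMP in WT and none lower by edgeR or DESeq2, with 2 lower at an unadjusted p under 0.05; in URE, 9 were higher and 3 lower. The WT rise with the smallest p was at Ikzf1 +100.7 kb, in the downstream flank (chr11:11785432-11785956), from 1.08, 1.26 and 1.41 CPM in WT-LSK to 9.2, 9.0 and 6.45 in WT-GMP (log2 fold change 2.71 ± 0.23, adjusted p = 2.37e-07). The same region went from 0.822 ± 0.0665 to 8.28 ± 1.89 CPM in URE (3.33 ± 0.23), and its genotype difference in GMP was 0.02 ± 0.20. Ikzf1 +45.4 kb rose by 2.07 ± 0.21 in WT and by 3.78 ± 0.25 in URE, to 27.5 ± 4.3 and 11 ± 3.32 CPM. Ikzf1 +31.8 kb was not called in either genotype, with log2 fold changes of 0.52 ± 0.18 and 0.66 ± 0.23.

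At Bcl11a, 6 regions were higher and 7 lower in WT, and 11 and 9 in URE. Bcl11a +9.2 kb rose from 1.32 ± 0.126 to 7.05 ± 2.06 CPM in WT (2.42 ± 0.22) and from 2.07 ± 0.292 to 17.4 ± 1.34 in URE (3.07 ± 0.21). Bcl11a +108.0 kb (chr11:24185925-24186208) fell from 2.89, 2.9 and 3.8 CPM in WT-LSK to 0.251, 0.21 and 0.207 in WT-GMP (-3.86 ± 0.32, adjusted p = 1.89e-07), and from 3.15 ± 0.776 to 0.114 ± 0.0412 in URE, and its genotype value in GMP, -0.96 ± 0.43, was a call with library-size scaling (-1.08), promoter TMM (-1.11) and without URE-GMP replicate 1 (-1.23). It lies next to Bcl11a +107.1 kb, which was not called in the WT step (0.48 ± 0.22).

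Ikzf2 had 5 regions higher and 1 lower in WT, and 6 and 3 in URE. Ikzf2 +103.1 kb rose from 0.53 ± 0.0632 to 2.39 ± 0.422 CPM in WT (2.14 ± 0.30, adjusted p = 2.11e-05) and to 4.47 ± 0.997 in URE-GMP, and Ikzf2 +158.4 kb was the 1 region that fell in WT (-2.36 ± 0.36). Ikzf3 had 4 regions higher and 1 lower in each genotype. Ikzf3 +64.6 kb rose by 4.13 ± 0.40 in WT (adjusted p = 6.96e-07) and by 2.27 ± 0.31 in URE from its higher LSK level. The region that fell in WT was Ikzf3 -9.3 kb, inside Zpbp2, from 3.1 ± 0.355 to 1.32 ± 0.0348 CPM (-1.23 ± 0.24).

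Whether the genotype difference was the same in both cell types was tested as an interaction, the difference in GMP minus that in LSK. It was called positive at 7 members (8.33%) and negative at 5 (5.95%), against 8.96% and 5.03% of all regions. Without URE-LSK replicate 1, 4 were positive and 5 negative, and glmTreat called 1. The largest of these 12 was at Bcl11a +57.6 kb (chr11:24135497-24135776), which held 1.23, 1.14 and 1.27 CPM in WT-LSK and 0.214, 0.335 and 0.299 in URE-LSK. In GMP it held 2.13, 2.37 and 1.59 CPM in WT and 2.67, 2.9 and 1.82 in URE. URE fell below WT in LSK (-2.10 ± 0.31) and overlapped with it in GMP (0.28 ± 0.25), an interaction of 2.39 ± 0.40 (adjusted p = 0.000919).

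Farther along the gene, Bcl11a +66.6 kb (chr11:24144231-24145101) went the other way, at 16.9 ± 2.9 CPM in URE-LSK against 13.8 ± 1.26 in WT-LSK, and at 4.61, 5.01 and 4.63 in URE-GMP against 12, 8.9 and 9.38 in WT-GMP. The GMP groups separated (-1.08 ± 0.16), the LSK groups overlapped (0.29 ± 0.16), and the interaction was -1.37 ± 0.23 (adjusted p = 0.000871). That GMP call was lost without WT-GMP replicate 1 (-0.98) and with GC offsets (-0.82). Ikzf1 +5.4 kb (chr11:11689883-11690880), an intronic region near the start, held 36.0, 31.1 and 27.4 CPM in URE-LSK against 17.1, 15.6 and 14.7 in WT-LSK, and 13.3 ± 1.45 in URE-GMP against 15.8 ± 1.96 in WT-GMP. All URE-LSK libraries were above all WT-LSK libraries at a log2 fold change of 1.0 ± 0.13, short of the fold threshold here and past it with DESeq2 and RLE factors (1.04 each), with GC offsets (1.44) and without URE-LSK replicate 2 (1.01) or 3 (1.09), the GMP value was -0.24 ± 0.13, and the interaction was -1.24 ± 0.18 (adjusted p = 0.000407). Ikzf2 +4.0 kb, which overlaps a coding exon, had the same sign of interaction (-1.14 ± 0.25, adjusted p = 0.00635), with 3.76 ± 0.528 and 4.13 ± 0.313 CPM in LSK against 3.76 ± 0.325 and 1.88 ± 0.0837 in GMP, and the interaction was -0.97 without WT-LSK replicate 3. Its GMP value of -1.0 ± 0.18, at the fold threshold but within it, became a call with library-size scaling (-1.12), promoter TMM (-1.14), the CPM minimum (-1.07) or the replicate block (-1.0), and without any 1 of WT-LSK replicates 1 to 3, WT-GMP replicate 3 or URE-GMP replicate 2 (-1.01 to -1.06).

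**Figure D5:**
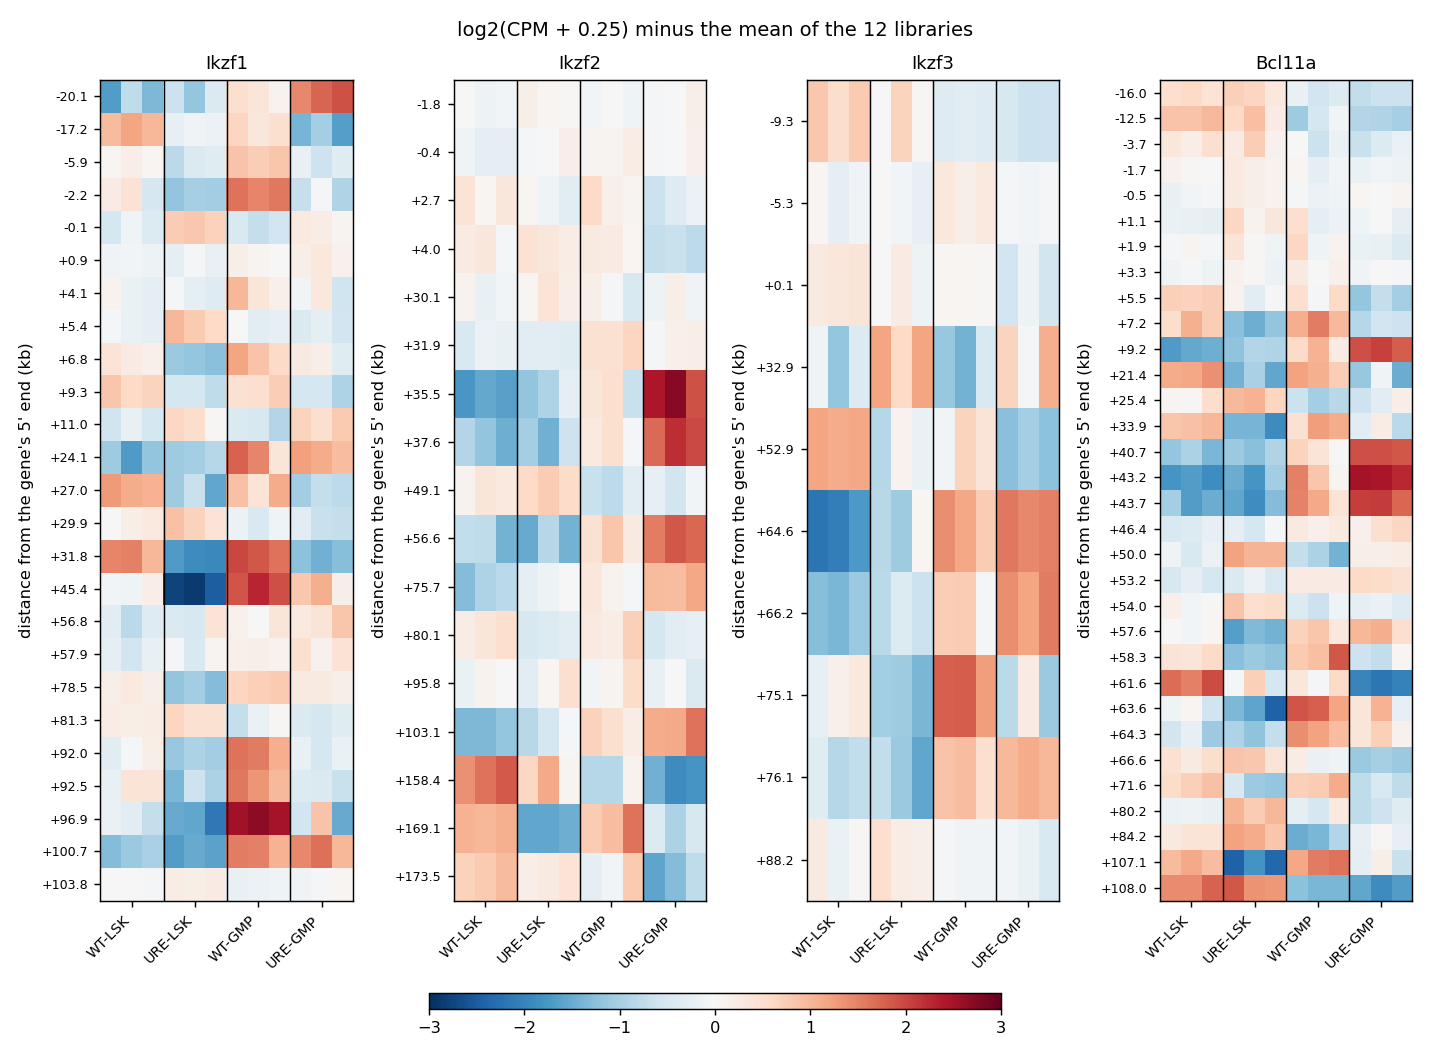
Log2(CPM + 0.25) of each of the 84 regions (rows, labelled by distance from the gene's 5' end in kb) minus its mean over the 12 libraries (columns, 3 per group); blue is below and red above the mean, on a scale from -3 to 3. Rows of the genes' own start sites are pale in all groups, the URE-LSK columns of Ikzf1 are darkest blue at +45.4 kb, and the Ikzf2 rows at +35.5 and +37.6 kb are red in URE-GMP.

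Summed over its 25 regions, Ikzf1 was highest in WT-GMP, at 267, 259 and 248 CPM, followed by URE-GMP at 198, 213 and 186, WT-LSK at 200, 202 and 192, and URE-LSK at 179, 180 and 168. URE-GMP and WT-LSK overlapped, and the other neighbours in this order did not. Without regions at any start site the sum was 117 ± 9.08 CPM in URE-GMP against 187 ± 5.1 in WT-GMP, and 108 ± 5.74 in URE-LSK against 135 ± 3.89 in WT-LSK. The Ikzf2 sum was 140 ± 11.9 CPM in WT-GMP and 127 to 128 in the means of the other groups, and all neighbours in the order overlapped. Ikzf3 was at 78.2 ± 2.84 CPM in WT-GMP, where every library lay above all libraries of the other groups, and at 69.3 ± 1.64 in URE-GMP, 69.3 ± 5.82 in URE-LSK and 65.7 ± 8.34 in WT-LSK, which overlapped. The Zpbp2 start site, Ikzf3 -5.3 kb, held 42.9 ± 2.32 CPM of the WT-GMP sum and 34.6 ± 0.588 of the URE-GMP sum. Without regions at any start site, Ikzf3 was at 31.9 ± 2.24 CPM in WT-GMP and 32.3 ± 1.8 in URE-GMP. The LSK sums without them were 32.4 ± 2.96 in URE and 28.1 ± 4.28 in WT. Bcl11a was at 292 ± 21.4 CPM in WT-GMP, 278 ± 24.9 in URE-LSK, 274 ± 4.56 in WT-LSK and 269 ± 12.3 in URE-GMP, with overlap throughout. Without regions at any start site, Bcl11a was at 95.9 ± 9.68 CPM in URE-LSK against 114 ± 4.22 in WT-LSK. In GMP that sum was 105 ± 10.6 in URE against 122 ± 5.23 in WT, and the genotypes did not overlap in either cell type. The Ikzf2 sums without start sites overlapped between genotypes in both cell types. Sums over regions mix gains and losses and were not tested.

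Among 13016 protein-coding genes with at least 5 regions, the summed signal most like that of Ikzf1 over the 12 libraries was at Plin2 (Pearson r = 0.989), Alpk1 (0.983) and Dab2 (0.982). For Ikzf2 the nearest genes were Zdhhc9 (0.807), Vangl2 (0.795) and Galnt9 (0.776), for Ikzf3 Tab2 (0.876), Mturn (0.866) and Tbx2 (0.858), and for Bcl11a Txnrd1 (0.89), Rnf220 (0.879) and Eid3 (0.859). The libraries fall into 4 groups and share their depth and scaling, so these values describe likeness only.

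Counts for other genes, in their bodies and 20 kb around, are read against the 13.6% of all regions called higher and 23.9% called lower in LSK, and the 15.6% and 24.1% in GMP. The related gene Bcl11b, a regulator of T cell commitment, had 8 regions, of which 5 were called higher in URE in LSK and 6 in GMP, with median log2 fold changes of 1.21 and 2.02. These were all the genotype calls made by edgeR among the 17 regions of Bcl11b, Ikzf4 and Ikzf5. Genes of the NuRD complex had 142 regions, of which 15 were higher (10.6%) and 21 lower (14.8%) in LSK and 19 (13.4%) and 21 (14.8%) in GMP, with medians of 0.26 and 0.22. Mta3, one of its subunits, had 33 of these regions, the most of any gene in the list. It held 13 of the lower regions in LSK and 12 in GMP, and also 7 and 6 of the higher ones. Lymphoid genes that the Ikaros family is known to regulate had 76 regions, with 3 higher (3.95%) and 21 lower (27.6%) in LSK and 7 (9.21%) and 19 (25%) in GMP, so the lower shares lay near those of all regions. Flt3, the receptor of early lymphoid progenitors, had 8 of 20 regions lower in LSK and 7 in GMP, and Il7r, the interleukin 7 receptor chain, 3 of 3 and 2 of 3. Dntt, the terminal transferase of antigen receptor genes, had 3 and 5 of 16 regions lower. The 7 regions of Igll1 and Vpreb1, neighbours that encode the surrogate light chain, are shared and held 1 higher call in GMP. Notch1 had 3 higher and 4 lower of 23 regions in LSK and 6 and 3 in GMP, and the adjoining Rag1 and Rag2 loci overlap, with 2 and 3 lower in LSK and 1 and 2 in GMP.

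Motif matches in the central 300 bases, counted on both strands, are given as a description. The PU.1 octamer was in 6 of the 84 windows (7.14%) against 8.7% of all regions, 4 of them at Ikzf1 and 2 at Ikzf2. RUNX letters were in 19.05% against 14.44%, C/EBP in 23.81% against 16.43%, GATA in 11.9% against 12.91% and the Ikaros core in 29.76% against 24%. At Ikzf1 itself, 11 of 25 windows held the Ikaros core (44%). The 4 Ikzf1 windows with the PU.1 octamer, at -17.2, +6.8, +9.3 and +78.5 kb, were all called lower in LSK, with log2 fold changes of -1.25, -1.55, -1.40 and -1.41. In GMP their values were -1.92, -0.85, -1.33 and -0.48, and those at -17.2 and +9.3 kb were called. The 2 Ikzf2 windows, at +31.9 and +80.1 kb, were not called in either cell type. Over all regions with the octamer, 58.2% were called lower in LSK and 52.7% in GMP. Of the 16 members with RUNX letters, 4 were higher and 5 lower in LSK, and the same numbers in GMP, against 24.2% and 20.4%, and 21.6% and 21.9%, of all regions with them. Of the 25 with the Ikaros core, 1 was higher and 9 lower in each cell type, against 11.8% and 26.2% in LSK and 15.2% and 26.2% in GMP over all regions with it. No member had overlapping matches of different motifs.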

How the data were processed

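The authors deposited raw counts, whole numbers per open chromatin region for the 12 libraries, with no normalization. Per the study's methods and the submitters' processing notes, Bowtie2 placed the reads on GRCm38, duplicate reads and those outside the primary chromosomes were dropped, Genrich found peaks group by group, the peak sets were joined, and featureCounts is among the tools named. What was counted, read ends or whole fragments, is not given in the sources used here. Coordinates in the table were read as 0-based starts and are printed 1-based. Groups and replicate numbers came from the GEO labels.

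The tests used edgeR 4.0.16 under R 4.3.3, with limma 3.58.1 for loess and GC offsets and DESeq2 1.42.0 as an alternative. Library sizes were scaled by TMM, filterByExpr removed 0 of 121336 regions, and the 12 libraries entered 1 quasi-likelihood model of group means, with two-sided tests and Benjamini-Hochberg adjustment over all regions. A count of 3 corresponded to 0.05204 to 0.1255 CPM per library, and counting intervals cover counting error only. The model was tested on simulated data before use.

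Regions named at each locus were its start sites (up to 3), its region with most counts, the 2 called regions of smallest p in each direction and cell type whose groups did not overlap, the 2 interactions of smallest p, and the WT-step region of smallest p in each direction. Members, lists and rules were chosen with earlier results of these data known. Same-numbered libraries deviated together between WT-LSK and WT-GMP (correlations 0.181, 0.191 and 0.207), a hint of pairing that the reported values do not use and the replicate block does. Between WT-GMP and URE-GMP, which are different mice, the correlations were 0.0997, 0.205 and 0.349. They were 0.0616, 0.273 and 0.113 between URE-LSK and URE-GMP, and 0.102, 0.0625 and -0.0616 between WT-LSK and URE-LSK. What the replicate numbers stand for is not given by the labels. A region's sequence and some marker genes are not reported here.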

Additional observations from a re-analysis of the deposited data

Results flagged for a closer look

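At 12 regions the genotype effect in GMP differed from that in LSK by the interaction test of edgeR (quasi-likelihood, Benjamini-Hochberg adjusted over all regions, 3 libraries per group), and these are given as values with no explanation. Positive values, on the log2 scale, were 2.39 at Bcl11a +57.6 kb (adjusted p = 0.000919), 1.71 at Ikzf1 +45.4 kb (0.00198), 1.73 at Bcl11a +107.1 kb (0.00269), 1.7 at Ikzf2 +56.6 kb (0.0194), 1.54 at Bcl11a +40.7 kb (0.0216), 1.44 at Bcl11a +33.9 kb (0.022) and 1.49 at Ikzf2 +169.1 kb (0.0421). At Ikzf1 +45.4 kb, Bcl11a +107.1 kb, Bcl11a +33.9 kb and Ikzf2 +169.1 kb URE was called lower than WT in both cell types, by more in LSK.

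Negative values were -1.24 at Ikzf1 +5.4 kb (adjusted p = 0.000407), -1.37 at Bcl11a +66.6 kb (0.000871), -1.14 at Ikzf2 +4.0 kb (0.00635), -2.08 at Bcl11a +80.2 kb (0.00664) and -1.86 at Ikzf3 +64.6 kb (0.0217). The last of these missed the threshold without WT-LSK replicate 1 (-1.57, adjusted p = 0.0793), WT-LSK replicate 2 (-1.72, 0.0606) or URE-LSK replicate 3 (-1.3, 0.0577), and Ikzf2 +56.6 kb without WT-LSK replicate 1 (1.54, 0.059) or URE-LSK replicate 1 (1.51, 0.0585). The interactions at Bcl11a +107.1, +40.7, +33.9 and +80.2 kb and Ikzf2 +169.1 kb were not followed singly under other settings or left-out libraries.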

How the results depend on the processing

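The counts of called members changed with filters and thresholds. With a mean CPM of at least 2 required, 16 members were called in LSK, 19 in GMP, 15 from LSK to GMP in WT, 24 in URE and 7 in the interaction, since fewer regions were tested. Without a fold threshold 56 were called in the WT step, and 21 when the loci were cut to the gene bodies. The interaction held 1 call with glmTreat and 7 at an adjusted p under 0.01. With the replicate block 32 members were called in LSK, 38 in GMP, 33 in the WT step, 45 in the URE step and 12 in the interaction, no count moved by over 1.5 times, and among the named regions the block changed 1 call, that of Ikzf2 +4.0 kb in GMP (-1.0). Leaving out each library in turn gave 30 to 35 calls in LSK, 36 to 40 in GMP, 32 to 35 in the WT step, 44 to 51 in the URE step and 9 to 14 in the interaction. The median of all regions in LSK was 0.14, and 0.28 with GC offsets, 0.02 with library sizes and -0.04 with TMM factors from promoter regions, and single regions moved by other amounts with GC offsets, as Ikzf1 +5.4 kb in LSK from 1.0 to 1.44.

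Of 1127 values under other settings over 98 results, 1018 kept direction and side of the threshold and 39 turned sign, and 18 of 1176 turned sign when a library was left out. The latter ranged, over all left-out libraries, from -0.09 to 1.57 at Ikzf2 +37.6 kb, -0.03 to 0.2 at Ikzf2 +4.0 kb, -0.04 to 0.23 at Bcl11a +1.9 kb, -0.08 to 0.3 at Bcl11a +40.7 kb, -0.25 to 0.08 at Bcl11a +108.0 kb and -0.15 to 0.07 at Ikzf3 -5.3 kb in LSK, and from -0.15 to 0.18 at Ikzf1 +100.7 kb in GMP. All turned values belonged to results that were small or uncalled above, and the cause was not tested. In LSK they were Ikzf2 +56.6 kb with loess offsets (0.23), GC offsets (0.06) and block with GC offsets (0.04), Ikzf2 +4.0 kb with promoter TMM (-0.04), Ikzf2 +2.7 kb with GC offsets (0.05, also with the block), Bcl11a +1.9 kb with library sizes (-0.01) and promoter TMM (-0.07), Bcl11a +3.3 kb with these (-0.02, -0.08) and loess (-0.16), and Ikzf3 -9.3 kb with GC offsets (0.01). Bcl11a +108.0 kb, at -0.03, was 0.02 with DESeq2 and with RLE factors, 0.44 with GC offsets and 0.41 with the block added. With loess it was 1.33 (adjusted p = 0.000594), which made it a call for higher in URE. Ikzf3 -5.3 kb, at 0.00, was -0.12 with library sizes, -0.18 with promoter TMM, -0.21 with loess, -0.03 with GC offsets, with and without the block, -0.04 with the CPM minimum and -0.05 with 2 groups fitted. In GMP they were Ikzf1 +0.9 kb with promoter TMM (-0.01), loess (-0.09) and GC offsets (-0.04, also with the block), Ikzf1 +5.4 kb with GC offsets (0.13, also with the block), Ikzf1 +100.7 kb with library sizes (-0.10), promoter TMM (-0.12) and the CPM minimum (-0.05), and Bcl11a -0.5 kb with loess (-0.06). With loess, Bcl11a +80.2 kb was 0.42 and Bcl11a +108.0 kb 0.15, and Ikzf3 -9.3 kb was 0.02 with loess and 0.25 with GC offsets, with and without the block.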
